A study of Homo sapiens with 4 samples.

Results

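The pro-apoptotic members of the BCL2 family were followed in Meg-01 cells with and without a stable knockdown of GATA1. The members were BAX, BAK1, BCL2L11, BBC3, BID, PMAIP1, BAD, BIK, BMF and HRK, and they were chosen by gene name: every probe that is not a control probe and carries 1 of the 10 names was taken and kept apart. This gave 20 probes of 10 genes, among 41000 probes and 30499 distinct gene names on the array. Of all probes, 40974 had a value on all 4 arrays and were tested, the 20 member probes among them.

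Meg-01 is an established human megakaryoblastic leukaemia line. The knockdown clones GATA1 5-13 and GATA1 4-14 each grew from a single colony after infection with a lentivirus carrying a GATA1 shRNA and selection in puromycin, and the control, GATA1 Neg, was a pool of Meg-01 cells that received a negative control shRNA. Each array held RNA of 1 clone and RNA of GATA1 Neg in opposite dyes, and the dyes were swapped on the other array of that clone: on replicate 1 the knockdown RNA was red, on replicate 2 it was green. Cells of the knockdown groups and of the control all carried a lentivirus, and no drug treatment of the cells is given for these RNAs. A clone differs from a pool also in having passed through a single cell, so an effect of GATA1 and an effect of the clone cannot be told apart within a clone. By the labels the RNA came from Meg-01, but their extraction text speaks of clones of CMK, another megakaryoblastic line.

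Cells commit to the mitochondrial route of apoptosis when BAX or BAK1 forms pores in the outer membrane of the mitochondrion and cytochrome c escapes. The BH3-only proteins set this off: BCL2L11 (BIM), BBC3 (PUMA) and BID can activate the effectors directly. PMAIP1 (NOXA), BAD, BIK, BMF and HRK each bind some of the survival proteins BCL2, BCL2L1 (BCL-xL) and MCL1 and so release the activators. In megakaryocytes and platelets BCL2L1 is the survival protein known to hold BAK1 and BAX in check, and GATA1 is a zinc finger factor of the megakaryocyte and erythroid lineages that binds DNA at the GATA motif.

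To show where that motif stands near the members, the letters GATA with an A or a T before them and an A or a G after them were searched on both strands of RefSeq promoter windows of GRCh38.p14, each from 250 bases before to 50 bases after a gene start. Windows were found for 9 of the 10 genes, 15 windows in all. The sole match lay in 1 of the 2 windows of BMF, 95 bases before the start. It reads TTATCA along the gene, the reverse complement of TGATAA. A match was held by 25.0% of all 35116 windows, so its presence at BMF is a description of these letters and not of binding. The stretch around it, on chromosome 15, minus strand, is given 5′ to 3′ with the match in capitals.
BMF, chr15:40107044-40107073: agaggaacttctTTATCAccaagaaactca

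The knockdown was read first. The probe of GATA1 (A_24_P374244) measured log2 ratios of knockdown over GATA1 Neg of -0.21 and -0.34 for the clone GATA1 5-13, and -0.43 and -0.58 for the clone GATA1 4-14. All 4 arrays lay below 0, and the mean was -0.39 ± 0.16 (SD, n = 2 clones), or 76.4% of the control (limma, adjusted p = 0.61). The share of probes well above background was between 60.7 and 65.6% over the arrays and dyes, no spot was saturated, and 135 to 152 of 43376 spots per array carried an outlier mark. Of markers of the labelled lineage, 8 of the 12 megakaryocyte genes on the array were well above background in GATA1 Neg on all 4 arrays, while the probes of PF4, VWF and SELP were so on none. All 9 erythroid genes, 2 of 4 lymphoid genes and 0 of 3 fibroblast genes were well above background there as well.

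Transcripts of 9 of the 10 members were detected throughout. In both RNAs of all 4 arrays, 18 probes were well above background. The probe of BMF (A_23_P379649) passed on the arrays of GATA1 5-13 alone, and of the probes of HRK, A_23_P25194 was well above background in no channel while A_24_P52882 passed in all 8. Levels below are intensities after background correction and normalisation, in arbitrary units, and they compare RNAs for the same probe and not different probes.

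**Figure D1:**
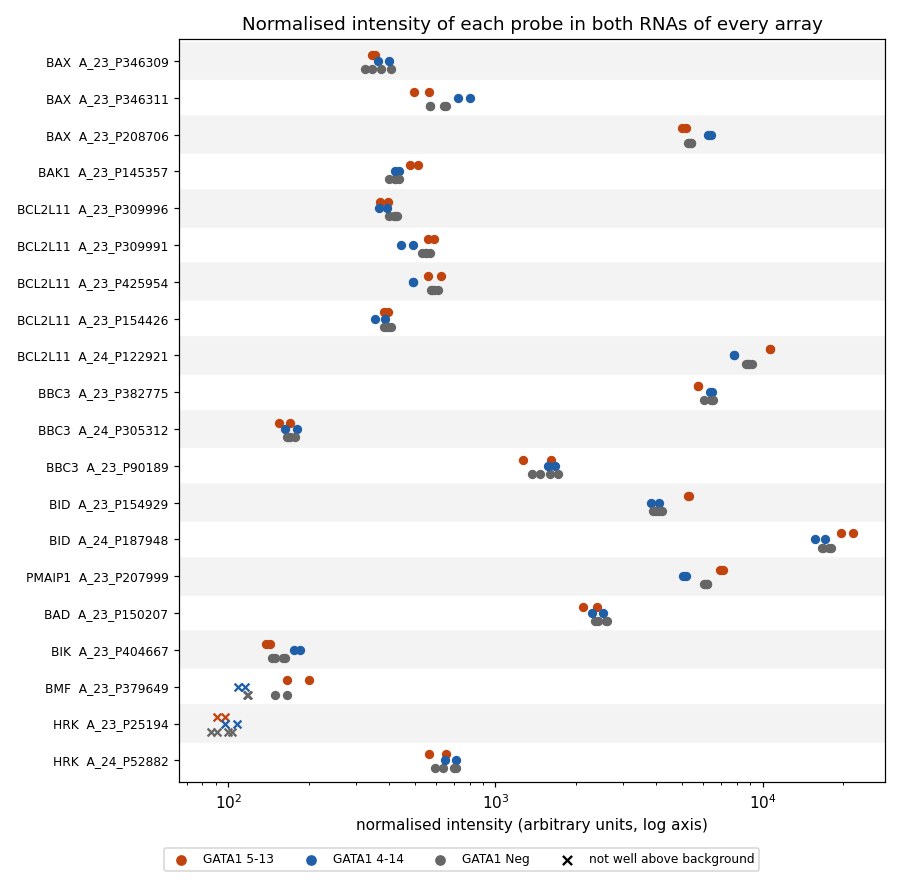
Normalised intensity on a log axis for each of the 20 probes, with a point per RNA and array: GATA1 5-13 in orange, GATA1 4-14 in blue and GATA1 Neg in grey, and crosses for channels not well above background. BCL2L11 A_23_P309996 is the probe with all 4 knockdown points on one side of all 4 control points; for PMAIP1, BAX A_23_P208706 and A_23_P346311, BIK and BCL2L11 A_24_P122921 the clones lie apart, on either side of the control points.

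None of the members passed the test. Over both clones, 0 of 20 probes were higher and 0 lower at an adjusted p under 0.05 (limma), and the same held for 0% of all 40974 probes, since no probe on the array passed with 2 clones. At an unadjusted p of at most 0.005, a limit that the study set on the p of another test, limma again called 0 of 20, against 0.327% of all probes higher and 0.574% lower. At an unadjusted p under 0.05 the members' count was still 0, against 3.38% of all probes higher and 4.04% lower. An error-weighted mean of the scanner's own ratios takes its p from the scanner's error for each ratio, with no spread between arrays or clones. It called 4.02% of all probes higher and 4.31% lower after adjustment, and 0 of the 20 members. At its unadjusted p of at most 0.005 it called 4.18% of all probes higher and 4.45% lower, and again 0 members. It approximates the study's error-weighted test and is not that test, so these counts are not the study's calls. The study's own list did hold BMF among the genes higher in the knockdown. The study also placed BMF among the genes with a bound region in its GATA1 ChIP-on-chip assay of Meg-01 cells. The arrays read here do not measure binding.

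The changes were small as well as uncalled. The mean log2 ratios of the 20 probes ranged from -0.13 to 0.18, with a median of 0.003, and 10 of the 20 were above 0. Over all probes the median was -0.0002 and the middle 95% lay between -0.38 and 0.33. The median size of the change, with the sign left out, was 0.067 for the 18 members detected throughout and 0.097 for the 23803 probes detected throughout. With 2 clones the 95% interval of a member's mean reached, in the median, 0.27 to each side, and taken over the 18 probes the interval bounds ran from -0.47 to 0.56. A change as large as the one measured for GATA1 itself is therefore inside the interval of some members, and the test does not show that these genes were unaffected.

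**Figure D2:**
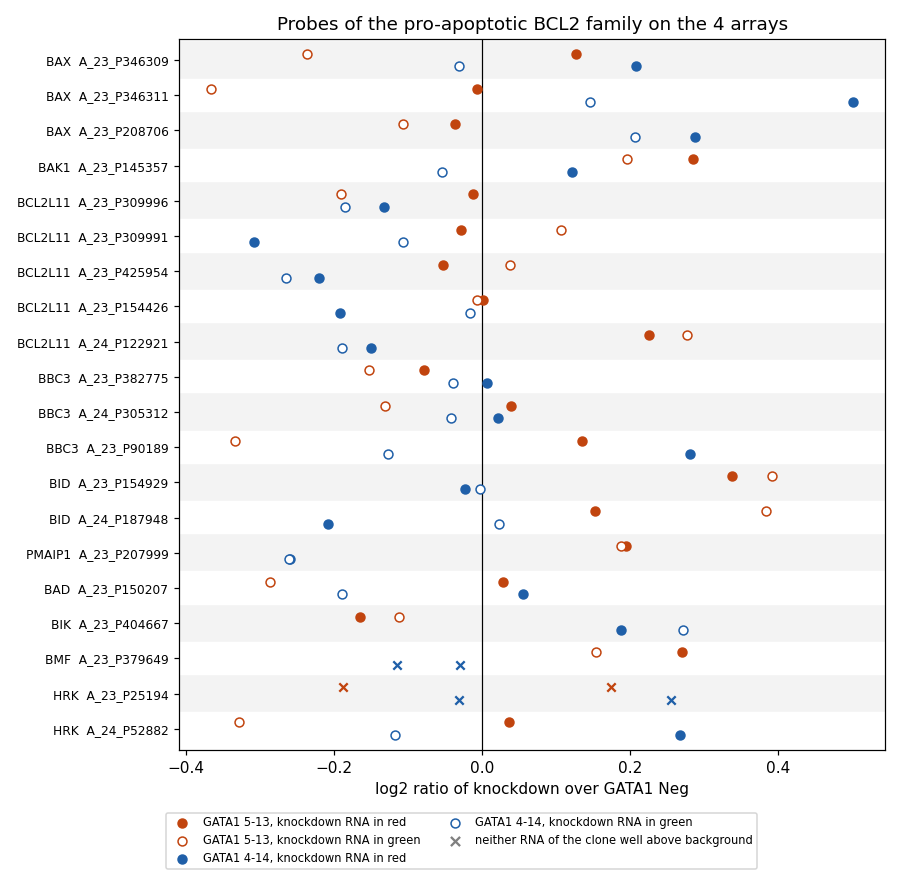
Log2 ratio of knockdown over GATA1 Neg for each of the 20 probes on the 4 arrays: orange for GATA1 5-13, blue for GATA1 4-14, filled where the knockdown RNA was red and open where it was green, and crosses where neither RNA of the clone was well above background. All points but that of BAX A_23_P346311 at 0.50 lie within 0.4 of 0, and for PMAIP1, BIK, BCL2L11 A_24_P122921 and BAX A_23_P208706 the pairs of points of the clones lie on opposite sides of 0.

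BAX, the effector that moves from the cytosol to the mitochondrion, has 3 probes on chromosome 19 (hg18, plus strand). The brightest, A_23_P208706 (54156716 to 54156775), is spotted 10 times on each array, and its intensities in GATA1 5-13 were 5156 and 4988 beside 5288 and 5373 in GATA1 Neg, and in GATA1 4-14 were 6417 and 6244 beside 5258 and 5408. Both values of GATA1 4-14 were thus above every GATA1 Neg value, and both values of GATA1 5-13 below. The log2 ratios were -0.04 and -0.11 for GATA1 5-13 and 0.29 and 0.21 for GATA1 4-14, with a mean of 0.09 ± 0.23 (adjusted p = 0.87). The probe A_23_P346311 (54150770 to 54150829) was ordered in the same way, at -0.01 and -0.37 in GATA1 5-13 and 0.50 and 0.15 in GATA1 4-14, with a mean of 0.07 ± 0.36 (adjusted p = 0.94). The probe A_23_P346309 (54150541 to 54150600) had 0.13 and -0.24 in GATA1 5-13 and 0.21 and -0.03 in GATA1 4-14, so its sign followed the dye and not the clone. Its mean was 0.02 ± 0.10 (adjusted p = 0.97).

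The repeated spots show how well a single array measured BAX. The SD of the log2 ratio over the 10 spots of A_23_P208706 was 0.023 to 0.035. All 10 spots were above 0 on both arrays of GATA1 4-14, while on those of GATA1 5-13 8 and 10 of the 10 were below 0. Spots of an array share the same RNA and the same hybridisation, so this spread is that of the measurement and not of the clones.

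**Figure D3:**
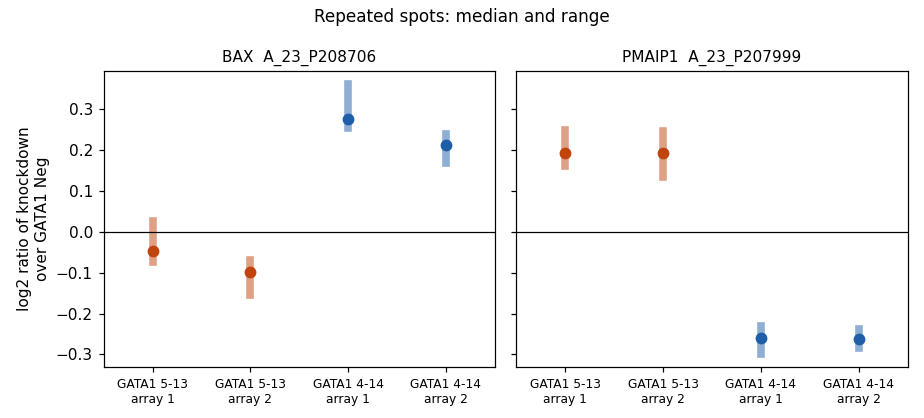
Log2 ratio over the repeated spots of the probes of BAX (left) and PMAIP1 (right) on each array; the point is the median and the bar runs from the lowest to the highest spot, orange for GATA1 5-13 and blue for GATA1 4-14. For PMAIP1 the medians are 0.19 on both arrays of GATA1 5-13 and -0.26 on both of GATA1 4-14, and for BAX the order of the clones is turned.

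BAK1, the effector that resides in the mitochondrial membrane, has 1 probe (A_23_P145357, chromosome 6, 33648563 to 33648622, minus strand). Its intensities were 513.2 and 480.9 in GATA1 5-13, 436.7 and 419.6 in GATA1 4-14 and 401.4 to 435.7 in GATA1 Neg. Both GATA1 5-13 values were above all 4 control values, and of the GATA1 4-14 values 419.6 was within the control range and 436.7 just above it. The log2 ratios were 0.29, 0.20, 0.12 and -0.05, with a mean of 0.14 ± 0.15 (adjusted p = 0.74).

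Among the activators, BCL2L11 is read by 5 probes spread over chromosome 2 (hg18, plus strand), and their values differ. BCL2L11 encodes BIM, made in several splice forms and known for killing blood cells that lose cytokine support. The probe A_24_P122921 (111642363 to 111642422) read 10660 and 10700 in GATA1 5-13, 7824 and 7798 in GATA1 4-14 and 8683 to 9122 in GATA1 Neg. GATA1 5-13 was above and GATA1 4-14 below every control value, and the log2 ratios of 0.23 and 0.28 against -0.15 and -0.19 average to 0.04 ± 0.30 (adjusted p = 0.96). The other 4 probes had no ratio above 0.11 on any array.

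A_23_P309996 (111627828 to 111627887), the most upstream of the 5 BCL2L11 probes, was lower on every array, with log2 ratios of -0.01, -0.19, -0.13 and -0.19. No other member probe held 1 sign on all 4 arrays, and 13.4% of all probes were lower on all 4 and 12.8% higher. Its intensities were 367.9 to 395.6 in the knockdown RNAs and 399.1 to 429.9 in GATA1 Neg, without overlap, as for 8.05% of all probes in this direction and 6.84% in the other. The mean was -0.13 ± 0.04, with a 95% interval from -0.31 to 0.05 (limma, adjusted p = 0.70). The probes A_23_P309991 (111638189 to 111638248) and A_23_P425954 (111638203 to 111638262) overlap by 46 bases and count as much the same measurement. They gave means of -0.08 ± 0.17 and -0.13 ± 0.17, with ratios of -0.31 and -0.11, and of -0.22 and -0.26, in GATA1 4-14 against -0.03 and 0.11, and -0.05 and 0.04, in GATA1 5-13. A_23_P154426 (111640036 to 111640095) averaged -0.05 ± 0.07. All 4 of these had a lower mean in GATA1 4-14 than in GATA1 5-13, as had the bright probe.

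BBC3 encodes PUMA, a BH3-only protein made under stress, and its 3 probes on chromosome 19 (minus strand) differed between the clones by -0.10, -0.04 and -0.18 in log2 ratio (GATA1 5-13 minus GATA1 4-14). A_23_P382775 (52416014 to 52416073) read 5718 and 5739 in GATA1 5-13, 6483 and 6353 in GATA1 4-14 and 6035 to 6526 in GATA1 Neg, with log2 ratios of -0.08, -0.15, 0.01 and -0.04. The values of GATA1 5-13 were below all control values, and the mean was -0.07 ± 0.07 (adjusted p = 0.82). A_24_P305312 (52416927 to 52416986) averaged -0.03 ± 0.03. A_23_P90189 (52423274 to 52423333) had 0.14 and -0.33 in GATA1 5-13 and 0.28 and -0.13 in GATA1 4-14 and averaged -0.01 ± 0.12, so here the difference between dyes was larger than the difference between clones.

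BID, which caspase 8 cleaves to carry a death receptor signal to the mitochondrion, had the largest mean among the members. Its probe A_23_P154929 (chromosome 22, 16598038 to 16598097, minus strand) read 5295 and 5252 in GATA1 5-13, 3824 and 4084 in GATA1 4-14 and 3885 to 4191 in GATA1 Neg. GATA1 5-13 stood above all control values, and of the GATA1 4-14 values 4084 was within the control range and 3824 below it. The log2 ratios were 0.34 and 0.39 in GATA1 5-13 and -0.02 and -0.003 in GATA1 4-14, for a mean of 0.18 ± 0.27 (adjusted p = 0.76). The value of GATA1 5-13, 0.36, was matched or passed in size by 16.2% of the probes detected throughout in that clone. The other probe, A_24_P187948 (16598182 to 16598241), had 0.15 and 0.38 in GATA1 5-13 and -0.21 and 0.02 in GATA1 4-14 and averaged 0.09 ± 0.26 (adjusted p = 0.88).

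Of the sensitisers, PMAIP1 read nearly the same on both arrays of a clone. It encodes NOXA, which binds MCL1, and its probe A_23_P207999 (chromosome 18, 55721258 to 55721317, plus strand) is also spotted 10 times. Intensities were 7078 and 6951 in GATA1 5-13, 5178 and 5021 in GATA1 4-14 and 6014 to 6198 in GATA1 Neg. The clones lay on either side of the control with no overlap, and the log2 ratios were 0.19 and 0.19 against -0.26 and -0.26. All spots kept had the sign of their clone (10 and 10 above 0 in GATA1 5-13, and 9 and 10 below 0 in GATA1 4-14, where 1 spot with an outlier mark was left out), and the SD over spots was 0.014 to 0.032. The mean over clones was -0.03 ± 0.32 (adjusted p = 0.97), and the difference between the clones, 0.45, has no test because each clone is 1 replicate.

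BIK, a BH3-only protein of the endoplasmic reticulum (A_23_P404667, chromosome 22, 41855439 to 41855498, plus strand), was dim but above background. It read 142.8 and 138.3 in GATA1 5-13, 185.9 and 175.7 in GATA1 4-14 and 145.6 to 163.2 in GATA1 Neg. Here GATA1 4-14 was the higher clone, with log2 ratios of 0.19 and 0.27 against -0.16 and -0.11 in GATA1 5-13, and the mean was 0.05 ± 0.26 (adjusted p = 0.94).

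BAD, which growth factor signals silence by phosphorylation (A_23_P150207, chromosome 11, 63794098 to 63794157, minus strand), gave 0.03 and -0.29 in GATA1 5-13 and 0.06 and -0.19 in GATA1 4-14 as log2 ratios. It was above 0 where the knockdown RNA was red and below 0 where it was green, and its mean was -0.10 ± 0.04 (adjusted p = 0.74). This order by dye was seen for 5 of the 20 probes, namely BAD, BAX A_23_P346309, BBC3 A_24_P305312 and A_23_P90189, and HRK A_24_P52882, and for 8.78% of all probes. The turned order, below 0 in red and above 0 in green, held for 1 member probe, HRK A_23_P25194, and for 7.18% of all probes. The mean over a dye pair cancels such an offset, and the part that dye played in the single ratios was not tested further.

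BMF and HRK were the members near the limit of detection. BMF, which is held at the cytoskeleton until it is released (A_23_P379649, chromosome 15, 38167742 to 38167801, minus strand), read 200.7 and 166.2 in GATA1 5-13 beside 166.5 and 149.3 in GATA1 Neg. On the arrays of GATA1 4-14 it read 109.1 and 115.1 beside 118.1 and 117.5, and neither RNA was well above background. The GATA1 Neg RNA itself was therefore above background on one pair of arrays and not on the other, and no fold is given for BMF between the clones. The log2 ratios of BMF in GATA1 5-13 were 0.27 and 0.15. The error-weighted mean of its scanner ratios was 0.34 (unadjusted p = 0.060, adjusted p = 0.35), against 0.07 ± 0.20 for the mean over clones (limma, adjusted p = 0.89). Both means take in the GATA1 4-14 arrays, where neither RNA was well above background. There the log2 ratios after loess were -0.11 and -0.03. HRK, known best from neurons, was well above background with A_24_P52882 (chromosome 12, 115803353 to 115803412, minus strand) at 565.5 to 713.4 in the knockdown RNAs and 592.7 to 710.2 in GATA1 Neg, with a mean of -0.04 ± 0.16 (adjusted p = 0.94). Its other probe, A_23_P25194 (115783436 to 115783495), stayed between 86.4 and 108.2 in every RNA.

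Taken clone by clone, each with its own arrays and the same GATA1 Neg, the members looked as follows. In GATA1 5-13, 6 of 20 probes were above 0 on both arrays and 5 below, against 32.8 and 33.4% of all probes. In GATA1 4-14, 3 were above 0 on both arrays and 8 below, against 28.2 and 28.6% of all probes, and the 5 probes of BCL2L11 were among the 8. Among the 18 probes detected throughout, the clone values ran from -0.19 to 0.36 in GATA1 5-13 and from -0.26 to 0.32 in GATA1 4-14. These ranges lie inside the middle 95% of the probes detected throughout, -0.69 to 0.56 in GATA1 5-13 and -0.41 to 0.38 in GATA1 4-14. The arrays of a clone differed from their mean by 0.056 in GATA1 5-13 and 0.065 in GATA1 4-14, in the median over the 18 probes.

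**Figure D4:**
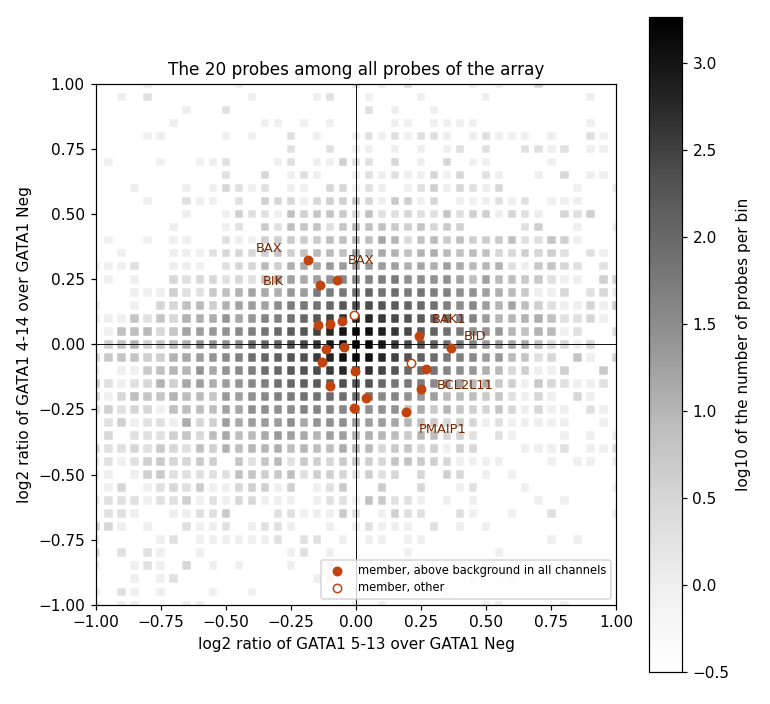
Log2 ratio of GATA1 4-14 against that of GATA1 5-13, both over GATA1 Neg and each the mean of 2 arrays; grey squares hold all probes by bin, darker for more probes on a log10 scale, and probes beyond 1 are not drawn. The members, in orange, lie within 0.4 of 0 on both axes, with BAX and BIK at the upper left and PMAIP1 and BCL2L11 at the lower right, where bins hold fewer probes than at the centre. The clones share their control pool, so the axes are not independent.

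The wider pathway was read from 5 lists with 56 genes, of which 55 were on the array with 95 probes. None of the 95 was higher or lower at an adjusted p under 0.05 (limma), 7 were higher and 19 lower on all 4 arrays, beside 12.8 and 13.4% of all probes, and the median over the probes was 0.009. The error-weighted mean called 4 of the 95 higher and 6 lower, beside 4.02 and 4.31% of all probes. Of the survival proteins, BCL2L1, the partner of BAK1 in this lineage, had a mean log2 ratio of 0.01 ± 0.04 with A_23_P210886 (adjusted p = 0.97), and its other probe was well above background in no channel. MCL1, which PMAIP1 binds, had 0.21 in GATA1 5-13 and 0.39 in GATA1 4-14 with A_24_P319635, a mean of 0.30 ± 0.13 (adjusted p = 0.63; error-weighted 0.037). Its other probes were near 0 in GATA1 5-13, at 0.01 and -0.07, and at 0.43 and 0.39 in GATA1 4-14.

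Among relatives and downstream genes that kept 1 sign throughout, BNIP3, a mitochondrial protein induced by low oxygen, had the largest positive mean, 0.39 ± 0.05 (adjusted p = 0.56; error-weighted 0.0036). BCL2L13 had -0.16 ± 0.02 with A_24_P409494. Its other probes, detected throughout as well, did not keep 1 sign and had 0.07 ± 0.08 and 0.04 ± 0.07. MOAP1, which binds BAX, had -0.12 ± 0.03. CASP9, the caspase of the apoptosome, had -0.21 ± 0.12 and -0.18 ± 0.10 with its pair of probes. VDAC3, a channel of the outer membrane, had 0.15 ± 0.06 with A_23_P60069. Its other probe did not keep 1 sign and had 0.09 ± 0.05. Of the inhibitors of apoptosis, BIRC3 had -0.44 ± 0.36 (adjusted p = 0.68; error-weighted 0.00031). NAIP had -0.16 ± 0.08 with A_23_P110473 and -0.19 ± 0.10 with A_24_P283221, while its other probe did not keep 1 sign and had -0.05 ± 0.02.

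Of the regulators upstream of the members, FOXO1, listed on the array as FOXO1A and a factor of the family that drives BCL2L11, gave a log2 ratio of -1.55 for GATA1 5-13 and of -0.23 for GATA1 4-14 with A_23_P151426, and of -1.20 and -0.19 with A_24_P22079. The means were -0.89 ± 0.93 and -0.70 ± 0.71 (limma, adjusted p = 0.70 for each). The error-weighted mean, which leaves out the spread between clones, gave adjusted p-values of 6.7e-11 and 4.0e-09. The kinase MAPK8 averaged 0.12 ± 0.04 with A_24_P286898. Its other probes, detected throughout as well, were below 0 in GATA1 5-13 and above 0 in GATA1 4-14. They averaged 0.006 ± 0.12 and -0.08 ± 0.27. The calcineurin subunit PPP3CA averaged -0.20 ± 0.20 with A_23_P92623 and -0.16 ± 0.14 with its other probe. The part of FOXO1 transcripts in the members' values was not tested.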

How the data were processed

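RNA of 2 GATA1 knockdown clones was compared with RNA of GATA1 Neg on 4 two-colour Agilent arrays of 1 slide. The authors deposited scanner output from Feature Extraction 9.5.3.1 with hg18 probe positions: spot and local background intensity per dye, not normalised, the program's log10 ratio, its error, a score from the error model, and other marks of 0 or 1 (background, saturation, outlier) per spot. The series-wide table of log10 ratios that the authors deposited holds these ratios turned to knockdown over control. Deposited p-values and processed signals were not used here.

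With limma 3.58.1 in R 4.3.3, intensities were corrected by normexp (offset 50) and loess within arrays, control and outlier spots were left out, spots were averaged per probe and then arrays per clone. The mean of 2 clones was tested against 0 (moderated, two-sided, Benjamini-Hochberg over 40974 probes, called at 0.05). GATA1 Neg is a single pool of cells, so its own spread is left out. Whether the clones vary like separate knockdowns is not known, and the number of arrays limits the precision. Intensities printed are after loess and Aquantile. "Detected throughout" means marked well above background (IsWellAboveBG) in all 8 channels.

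Every member probe was named, with GATA1, BCL2L1, MCL1 and, per pathway list, the 3 largest changes each way among probes detected throughout with the same sign on 4 arrays. Some genes that this rule names are not reported here. Members and lists were chosen with earlier results of these data known. The script was tested on simulated data. Alternatives were no background correction, the deposited ratios, median centring, Aquantile, a dim filter, outlier spots kept, an intensity trend, the arrays fitted as 4 values (with the replicate number as a block, or with no block), a mean weighted by error, a laxer background mark, and each array or clone left out. The error-weighted count at an unadjusted 0.005 was added after seeing the data.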

Additional observations from a re-analysis of the deposited data

Results flagged for a closer look

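For 6 probes, both arrays of one clone lay above GATA1 Neg and both arrays of the other lay below, as for 15.9% of all 40974 probes with all of them counted. The difference between the clones was not tested, because each clone is 1 replicate, and the clones share their control pool. The log2 ratio of GATA1 5-13 minus that of GATA1 4-14 was 0.45 for PMAIP1, 0.42 for BCL2L11 A_24_P122921 and 0.38 for BID A_23_P154929, where GATA1 5-13 was the higher clone. It was -0.51 for BAX A_23_P346311, -0.37 for BIK and -0.32 for BAX A_23_P208706, where GATA1 4-14 was the higher clone. For BID the ratios of GATA1 4-14 were -0.02 and -0.003, and for BAX A_23_P346311 a ratio of GATA1 5-13 was -0.01, so these opposite signs rest on values next to 0. BMF met the same condition but was not above background on the arrays of GATA1 4-14.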

How the results depend on the processing

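The count of members called at an adjusted p under 0.05 was 0 under all 15 alternatives that give a test. Aquantile changes intensities and not ratios, so it could not move them. Outside the 4-array fits and the error-weighted mean, no more than 1 probe of the whole array was called. There a count of 0 members was all but fixed in advance. The error-weighted mean called 1648 of all probes higher and 1768 lower. GATA1 passed with 4 arrays as 4 values (-0.39, adjusted p = 0.049) and with the error-weighted mean (-0.40, adjusted p = 0.0027), and pathway calls went from 0 to 4 higher and 6 lower with the latter. The replicate number marks the dye orientation, and arrays of the same number deviated together (r = 0.773), but with 2 arrays per clone both pairs give this same value by construction. With the replicate block on 4 arrays, 102 probes of the whole array were higher and 167 lower, against 504 and 736 without it, 0 members were called either way, and GATA1, at the same -0.39, no longer passed (adjusted p = 0.11). Probes lower on every array numbered 1, 0 with median centring, and 1 to 3 with single arrays left out; probes higher numbered 0, and 0 to 1 with single arrays left out. With median centring PMAIP1 turned to 0.000392. With single arrays or a clone left out, the log2 ratio crossed 0 for 12 of the 18 probes detected throughout, none of which had passed the test. No such count was made over all probes, so it marks no trait of the members. The log2 ratio ran from -0.0740 to 0.108 for BAX A_23_P346309, -0.186 to 0.324 for A_23_P346311 and -0.0718 to 0.247 for A_23_P208706. It ran from -0.207 to 0.0387 for BCL2L11 A_23_P309991 and -0.170 to 0.251 for A_24_P122921, from -0.0706 to 0.0146 for BBC3 A_24_P305312 and -0.128 to 0.106 for A_23_P90189, and from -0.0128 to 0.365 for BID A_23_P154929 and -0.0927 to 0.269 for A_24_P187948. It ran from -0.260 to 0.191 for PMAIP1, -0.138 to 0.230 for BIK and -0.146 to 0.0751 for HRK A_24_P52882. By the laxer mark for background, all 160 member channels passed, against 148.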
